A study of Mus musculus with 9 samples.

Results

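Retinal ganglion cells are the output neurons of the retina. They receive glutamate from bipolar cells and inhibitory input from amacrine cells, fire action potentials and send their axons through the optic nerve to the brain. They form many subtypes that differ in the feature of the visual scene to which they respond, and they are the cells that die in glaucoma and in other diseases of the optic nerve. Ganglion cells were chosen here from the single-cell counts of 6 genes: *Rbpms* (an RNA-binding protein of all ganglion cells), *Slc17a6* (the vesicular glutamate transporter VGLUT2), *Nefl* and *Nefm* (the light and medium neurofilament chains of large axons), *Sncg* (gamma-synuclein) and *Pou4f1* (the transcription factor Brn3a). A cell was taken when at least 4 of the 6 genes had 1 or more unique molecular identifier (UMI, 1 per captured RNA molecule), when the 6 together reached at least 5 per 10000 UMIs of the cell, and when *Gad1* and *Gad2*, which make the transmitter GABA in amacrine cells, stayed under 2 per 10000. By this rule 537 of 31089 cells were ganglion cells.

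The cells came from dissociated retinas of 9 mice, labelled by a split-pool barcoding method in 8 sublibraries. All 9 mice, the controls included, carried RPE65-ERT2-Cre.miR-211fl.miR-204fl, a tamoxifen-inducible Cre together with floxed alleles of both microRNAs. The 5 dKO mice (S05 to S09) received tamoxifen at 75 mg/kg on 5 days from postnatal day 28, the 4 control mice (S01 to S04) received the corn oil vehicle on the same days, and the label gives a time of 6 months for both groups. For its imaging and electroretinography the paper describes Cre-negative mice given tamoxifen as controls. It reports that their retinal phenotypes did not differ from those of Cre-positive mice given vehicle. The *Rpe65* promoter drives the Cre in the retinal pigment epithelium (RPE), so ganglion cells are not the cells in which the deletion was aimed. Since by the labels no control mouse here received tamoxifen, the drug and the deletion cannot be told apart in these counts. The comparison therefore asks whether ganglion cells differed in number or expression between mice with and without induced loss of the 2 microRNAs elsewhere in the eye.

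The mature sequences of the deleted microRNAs are shown because they define the knockout. They were read from RefSeq on the build GRCm38.p6, where miR-204-5p lies at chr19:22750610-22750631 and miR-211-5p at chr7:64205831-64205852, both on the plus strand. Capitals mark the seed, bases 2 to 8, which the 2 share.
mmu-miR-204-5p: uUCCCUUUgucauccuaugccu
mmu-miR-211-5p: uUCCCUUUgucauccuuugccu

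Between 15079143 and 66528160 UMIs were counted per mouse in all cells. Control mouse S04 gave only 9 ganglion cells, under the minimum of 10 per mouse, so expression was compared between 3 control and 5 dKO mice. Expression values of S04 are given beside the others without entering the main test. S04 does enter the tests of the share of ganglion cells. Mice S04, S05 and S07 stood apart from the rest in several ways. Cells with at least 5 of 7 rod genes made up 91.7%, 81.1% and 87.5% of all their cells against 38.7% to 52.0% in the other 6 mice, GABAergic amacrine cells 0.738%, 3.33% and 1.96% against 6.63% to 8.31%, and their median UMIs over all cells were 4775, 4863 and 5412.5 against 8118 to 10340. Their ganglion cells carried Y-linked RNA (more of it than *Xist* in 9 of 9, 36 of 37 and 64 of 67 cells) whereas no cell of the other 6 mice had more Y-linked RNA than *Xist*, and their ganglion cells held more rod RNA, at 0.219%, 0.185% and 0.277% of UMIs on 7 rod genes against 0.0261% to 0.0488% in the other mice. The labels give S06 and S07 1 animal number, but *Xist* exceeded the Y-linked RNA in 62 of 62 and 2 of 67 of their cells. Whether the mice of a group shared a litter is not stated, so p-values measure the spread between these animals. Several results that rest on these mice are given with and without them, and others only with the value of each mouse.

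Most of the cells chosen met the rule with room to spare. All 6 genes were detected in 406 cells, 5 in 79 and 4 in 52. The sum of the 6 genes ran from 5.81 to 54.2 per 10000 UMIs with a median of 28.0, and 15 cells lay between 5 and 10. Just outside stood 80 cells with 3 of the 6 genes, which had a median sum of 15.7 per 10000 and a median of only 9153 UMIs. A further 20 cells were left out for a low sum, of which the highest was 4.75, and 17 for *Gad1* and *Gad2*, of which the lowest was 2.08 per 10000 against a highest of 1.87 among the cells taken. *Gad1* and *Gad2* were without any UMI in 414 of the 537 cells. No barcode combination occurred in more than 1 mouse.

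Ganglion cells were the deepest cells compared here, with medians of 48681 UMIs and 7483 detected genes against 7709 and 2729 over all cells. GABAergic amacrine cells, taken as the 1787 cells with at least 3 of 4 GABAergic marker genes and with *Gad1* and *Gad2* at 5 or more per 10000 UMIs, had a median of 27248 UMIs, and the 18152 cells with at least 5 of 7 rod genes had 5084. All 3 kinds of cells were chosen by a number of detected genes, which shallow cells reach less often. Their depths therefore depend in part on the choice of the cells. These differences in depth bear on every share of cells with a UMI. *Rbpms* was detected in 99.6% of ganglion cells, 9.85% of amacrine cells and 5.93% of the cells with rod genes. For *Slc17a6* these shares were 98.5%, 1.62% and 1.26%, and for *Pou4f1* 89.4%, 1.12% and 0.733%. *Sncg* was the least often detected of the 6, in 82.1% of ganglion cells, against 1.01% of amacrine cells. These detection rates follow from the rule, so genes outside it are described next.

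Genes outside the rule also marked these cells, as a description, since the cells were chosen by their expression. Levels are in CPM, the UMIs of a gene per 1000000 UMIs of all ganglion cells of a mouse, and since CPM takes no account of transcript length, levels are not ranked between genes. Among the 2114 genes with at least 100 CPM in ganglion cells, the 20 with the largest ratio of the mean over 8 mice in ganglion cells to that in all other cells included *Pou4f1*, *Slc17a6*, *Nefl*, *Nefm* and *Rbpms* of the rule, with ratios of 155, 126, 85.7, 71.7 and 27.7. The largest ratio among genes outside the rule belonged to *Trarg1*, a regulator of glucose transporter trafficking, at 167 CPM against 1.30 in other cells. It ranged from 97.0 to 266 CPM between mice. *Nrn1*, which encodes neuritin, a membrane-anchored protein of neurite growth, stood at 160 CPM against 1.38 in other cells and 0.167 in amacrine cells, and it was detected in 95.5% of ganglion cells.

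Of the remaining genes of that list, *Srgap1*, a GTPase-activating protein of the Slit and Robo guidance pathway, stood at 943 CPM against 16.3 in other cells. *Calb2* (calretinin, a calcium-binding protein also found in amacrine cells) reached 441 CPM in ganglion cells and 40.7 in amacrine cells. *Rbpms2*, the paralogue of *Rbpms*, stood at 125 CPM against 4.46 in other cells and 1.02 in amacrine cells. Amacrine cells were below ganglion cells for each of the 20 genes.
The long non-coding RNA *Miat* was at 300.0 CPM against 6.34, and the unnamed transcripts D130079A08Rik, D130009I18Rik and 6330411D24Rik had ratios of 101, 93.7 and 59.97.

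**Figure D1:**
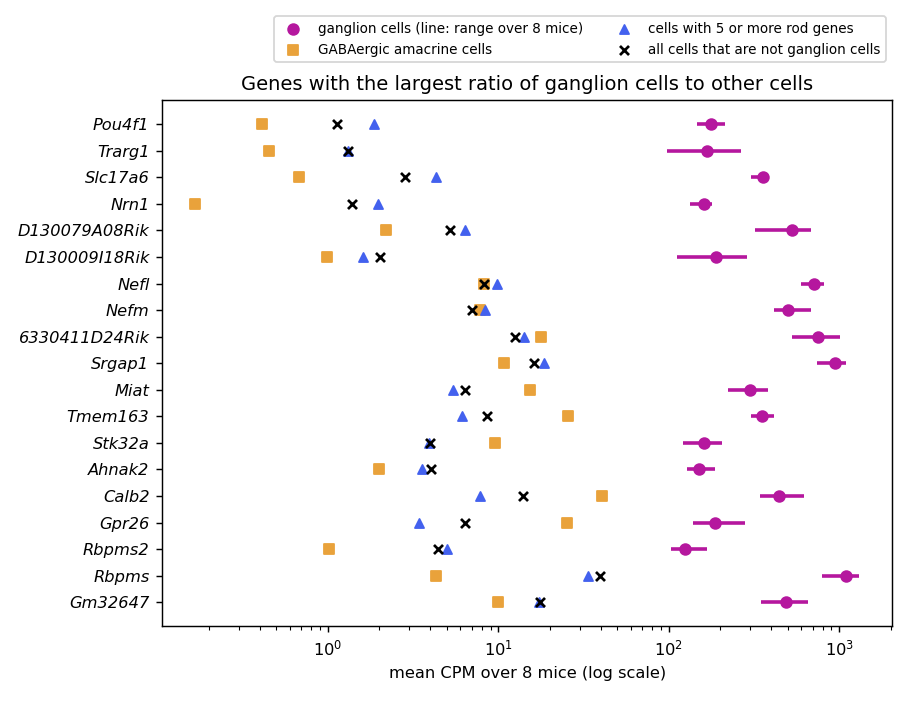
Mean CPM (log scale) of 19 of the 20 genes with the largest ratio, in ganglion cells (circles, with a line for the range over 8 mice), GABAergic amacrine cells (squares), cells with 5 or more rod genes (triangles) and all cells that are not ganglion cells (crosses). The range over mice in ganglion cells, from 97.0 to 266 CPM for *Trarg1* for example, lies above the levels of the other cells for each gene shown.

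The ganglion cells are described here by the genes detected together with single markers, among them transcription factors and peptides. Cells with a UMI of a marker were set against those without it, with all cells pooled and no test. The cells were not sorted into separate groups, and the sets with different markers overlapped to different degrees. Melanopsin (*Opn4*), the photopigment of the intrinsically photosensitive ganglion cells, was detected in 23 cells of 8 mice. Of these, 82.6% also held *Eomes*, the T-box factor on which these cells depend, against 6.23% of the 514 cells without *Opn4*. *Tbx20* was found in 43.5% and *Igf1* in 87.0% of them, against 3.70% and 40.5%. *Isl2* and *Pou4f3* were at 0 of 23 cells (a count of 0 allows a share of cells with a UMI of up to 13.04%, for counting error only, and does not limit expression) against 37.0% and 26.8% of the others. The 51 cells with *Eomes* were likewise high in *Tbx20*, at 219 CPM against 1.27 in the other 486, and *Cdh6* was detected in 74.5% of them against 19.1%.

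*Tbr1*, the T-box factor of another set of subtypes, was detected in 83 cells. These cells held more often *Plpp4* (40.96% against 13.7% of the 454 others) and *Barhl2* (85.5% against 31.9%), and they were higher in the heavy neurofilament chain *Nefh*, at 218 against 83.2 CPM. *Eomes* was found in 3 of the 83 (3.61%), and in 48 of the 454 others (10.6%). *Foxp2*, the forkhead factor of the F-type cells, was detected in 154 cells, which had 57.0 CPM of *Pde1a* against 8.15 in the 383 others, and 51.3% of them held *Isl2* against 29.0%. Other genes went both ways in these cells. *Foxp1* (357 against 228 CPM) and *Irx4* (25.5 against 15.4) were higher, whereas *Ano3* (182 against 284) and *Coch* (15.2 against 19.2) were lower.

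*Cartpt*, a peptide of direction-selective cells, was detected in 158 cells. They held *Mmp17*, a matrix metalloproteinase, in 16.5% against 6.07% of the 379 others and *Pou4f3* in 44.3% against 17.9%. Osteopontin (*Spp1*), a marker of alpha ganglion cells with large somata, was found in 25 cells, which were deeper than the rest, with a median of 94058 UMIs against 47446. The sodium channel subunit *Scn4b* was detected in 68% of them against 16.8%, and the potassium channel subunit *Kcng4* in 32% against 3.32%. *Nefh* stood at 385 against 83.1 CPM in these cells. These 3 genes were not particular to the cells with *Spp1*. Cells with *Tbr1* had *Kcng4* at 4.91 against 1.08 CPM, *Scn4b* at 34.4 against 9.10 and *Nefh* at 218 against 83.2. Lastly, 61 cells held *Neurod2*, with *Prdm8* in 50.8% of them against 15.8% of the 476 others. The genes given for the cells with *Cartpt* were not particular to those. Cells with *Neurod2* held *Mmp17* in 24.6% against 7.14%, *Pou4f3* in 44.3% against 23.3% and *Cartpt* itself in 49.2% against 26.9%. Greater depth in the cells with a marker raises the share with any other gene, whereas the CPM are per UMI.

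**Figure D2:**
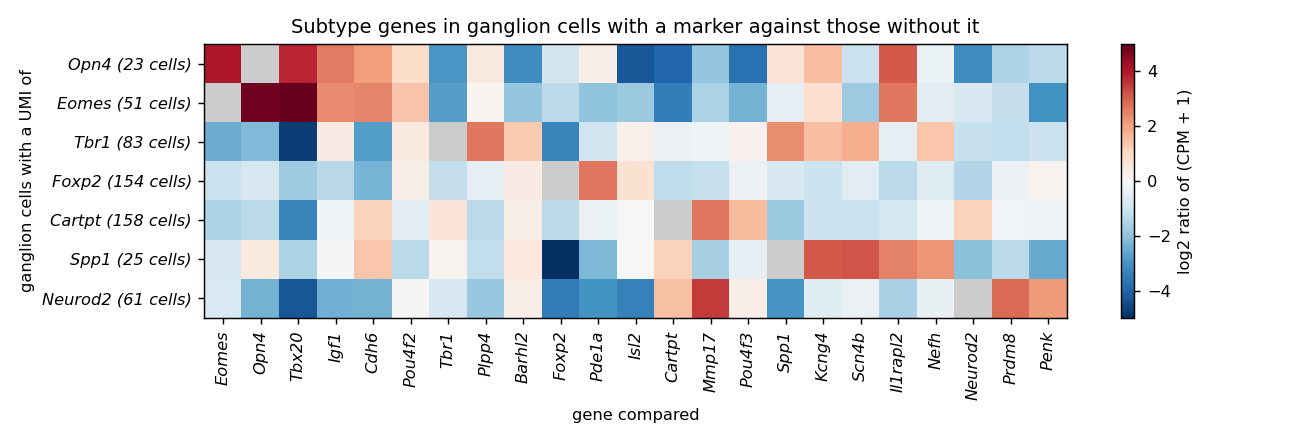
Log2 ratio of (CPM + 1) of 23 genes (columns) in ganglion cells with a UMI of a marker against ganglion cells without it (rows, with the number of cells), red for higher and blue for lower, with grey where a gene would be set against itself. *Opn4* and *Eomes* share *Tbx20*, *Igf1* and *Cdh6*, and *Neurod2* goes with *Prdm8*. *Spp1* goes with *Kcng4*, *Scn4b* and *Nefh*, which are also higher in the cells with *Tbr1*.

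The 57 cells without *Pou4f1* differed in the same genes. They had a median of 35449 UMIs against 50197 in the 480 with it. *Eomes* stood at 33.0 against 5.86 CPM in them, *Tbx20* at 76.0 against 19.9 and *Opn4* at 22.9 against 2.02, and *Cartpt* at 1.43 against 37.9 CPM. *Pou4f3* was at 0 of 57 of these cells (which allows up to 5.26% of cells with a UMI, by the same count) against 28.8% of the others.

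RNA of other cell types was present in ganglion cells to different degrees. At least 4 of the 7 rod genes were detected in 410 cells (76.4%), with a median sum of 2.40 per 10000 UMIs, but the sum reached 5 per 10000 in only 111 of them. At least 4 of 6 Müller glia genes were detected in 106 cells, of 6 cone genes in 34, of 6 bipolar genes in 31 and of 6 GABAergic amacrine genes in 15. No ganglion cell held 4 or more genes of the starburst amacrine, astrocyte or oligodendrocyte lists. Doublets were not removed, and their part in these cells was not tested. After thinning every cell to 5000 UMIs, the variance over the mean of a gene's UMIs had a median of 1.07 over 8784 genes. Among the genes that varied most were the potassium channel interacting protein *Kcnip4* (34.9, detected in 93.5% of cells), the protocadherin *Pcdh9* (18.7) and the synaptic adhesion protein *Lrrc4c* (18.2), but also the pericyte gene *Rgs5* (24.4) and the endothelial gene *Flt1* (19.96). *Rgs5* was detected in 1.71% and *Flt1* in 5.90% of the thinned cells. These 5 genes were named after their values were seen.

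The share of ganglion cells among all cells gave no difference larger than the spread between mice. It was 1.70%, 2.98%, 1.45% and 0.332% for controls S01 to S04, with exact 95% binomial intervals of 1.32% to 2.14%, 2.46% to 3.56%, 1.07% to 1.93% and 0.152% to 0.629%. In dKO mice S05 to S09 it was 2.28%, 1.498%, 1.42%, 2.09% and 1.81%, with intervals from 1.11% at the lowest (S07) to 3.13% at the highest (S05). The control mice held both the highest and the lowest share, and all 5 dKO mice lay between them. The intervals cover counting error only.
The means were 1.61% ± 1.08 (SD, n = 4) among controls and 1.82% ± 0.371 (SD, n = 5) among dKO mice (two-sided exact permutation test, p = 0.690; the smallest p of this design is 0.00794). The order turned to a difference of −0.24 percentage points without S04, S05 and S07 (exact permutation test, p = 0.9, smallest possible 0.05) and to −0.22 without S04 alone (exact permutation test, p = 0.661). A percentage of ganglion and amacrine cells together was chosen after seeing the data. By it, ganglion cells made up 24.0% ± 7.23 (SD, n = 4) among controls and 28.2% ± 12.2 (SD, n = 5) among dKO mice (exact permutation test, p = 0.516). Mouse S04, which had the lowest share, also had the highest share of cells with rod genes, 91.7%. Among cells with fewer than 5 of the 7 rod genes, ganglion cells made up 1.45% in S04, and the means were 1.99% ± 0.583 (SD, n = 4) among controls and 2.35% ± 0.746 (SD, n = 5) among dKO mice (exact permutation test, p = 0.492). That share leaves out the ganglion cells with 5 or more rod genes. A share that keeps every ganglion cell, chosen after seeing the data, was 4.11% ± 1.39 (SD, n = 4) among controls. Among dKO mice it was 7.20% ± 5.34 (SD, n = 5; exact permutation test, p = 0.397).

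**Figure D3:**
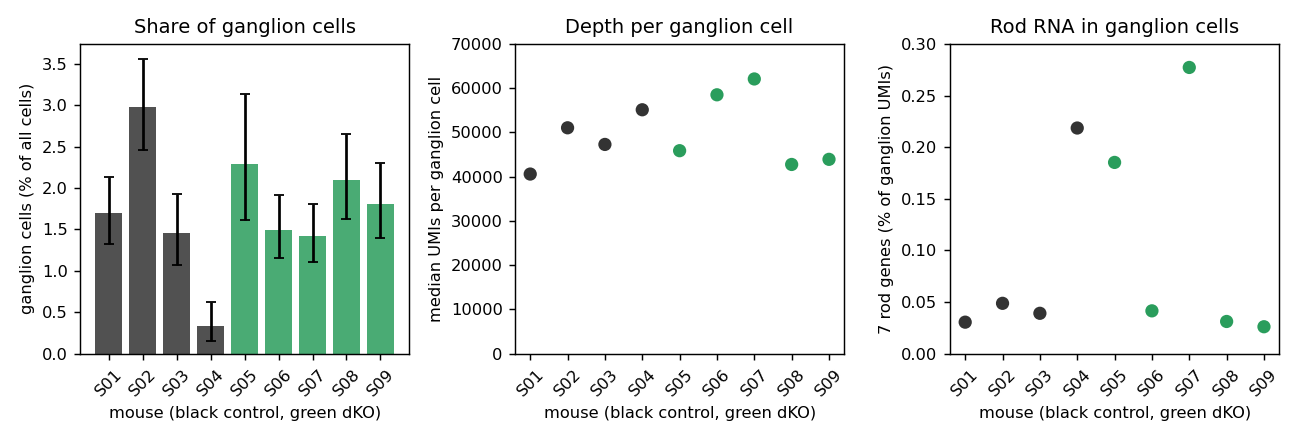
Ganglion cells as a percentage of all cells with exact 95% binomial intervals (left, bars), median UMIs per ganglion cell (middle) and UMIs on 7 rod genes as a percentage of ganglion UMIs (right), each by mouse, black for control and green for dKO. Control mouse S04 has the lowest share, 0.332%, and S04, S05 and S07 lie at 0.185% or more of rod RNA, above the other 6 mice.

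No difference in depth per ganglion cell was detected either. The median was 40600.5, 51057 and 47295 UMIs in control mice S01 to S03 while dKO mice S05 to S09 had 45883, 58514, 62094, 42768 and 43926, with 55131 in S04. The means of these medians were 46318 ± 5296 (SD, n = 3) and 50637 ± 8984 (SD, n = 5; two-sided exact permutation test, p = 0.5, where 3 against 5 mice cannot give a p under 0.0179). The rod RNA in ganglion cells averaged 0.0395% ± 0.00913 (SD, n = 3) of UMIs among controls and 0.112% ± 0.114 (SD, n = 5) among dKO mice (exact permutation test, p = 0.393). The higher mean of dKO mice came from S05 and S07, and without S04, S05 and S07 the difference was −0.0065 percentage points.

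No gene passed the threshold between dKO and control ganglion cells. Of 12417 genes tested, 0 (0%) passed an adjusted p of 0.05 in the quasi-likelihood test of edgeR on the UMIs summed per mouse (adjusted by Benjamini and Hochberg). At an unadjusted p below 0.05 there were 346 (2.79%), with 173 (1.39%) in each direction. In 168 genes (1.35%) every dKO mouse lay below every control mouse, and in 138 (1.11%) above. From the same counts limma-voom called 0 genes (347 at an unadjusted p below 0.05). DESeq2 called 5, *Gm6999*, *Cacna1e*, *Slc44a5*, *Chrm3* and *Eya1*, all lower in dKO, of which *Eya1* was named only after its values were seen. With no low-count filter edgeR called 21 genes, of which the 4 higher in dKO were the Y-linked *Ddx3y*, *Uty*, *Kdm5d* and *Eif2s3y*. Among the mice of the fit, only dKO mice S05 and S07 had more Y-linked RNA than *Xist* in most ganglion cells. Over all genes the median log2 fold change was 0.014 and the median standard error 0.19.

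The 10 genes of lowest p with at least 20 CPM were chosen by this contrast, so the values that follow describe them and support nothing further. All 10 missed the threshold, with adjusted p from 0.269 to 0.9996 (edgeR's quasi-likelihood test, Benjamini-Hochberg adjustment). The first 9 were lower and the last was higher in dKO.

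*Gm6999*, a long non-coding RNA gene of unknown role on chromosome 14 from 80074152 to 80243766 of GRCm39, stood at 32.5, 32.9 and 40.9 CPM in control mice S01 to S03. In dKO mice S05 to S09 it stood at 7.24, 16.1, 9.35, 13.4 and 9.32 CPM, a log2 fold change of −1.64 (SE 0.23, adjusted p = 0.269 by edgeR). The groups did not overlap, but control mouse S04, at 13.5 CPM from 8 UMIs, lay among the dKO mice. Its UMIs came from few cells, since the 5% of ganglion cells with the most held 78.3% of them and 1 cell of S01 held 84 of 599. The share of cells with a UMI was 10% to 19.1% in control and 5.41% to 23.9% in dKO mice, so this share overlapped.

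*Cacna1e*, which encodes the pore of the R-type calcium channel, showed 81.2, 55.3 and 66.0 CPM in control mice S01 to S03. In dKO mice S05 to S09 it showed 37.7, 37.6, 21.1, 19.98 and 25.7 CPM (log2 fold change −1.26, SE 0.22, adjusted p = 0.556 by edgeR). S04, at 117 CPM, lay above every other mouse. Here too 78.8% of the UMIs lay in the 5% of cells with the most.
*Slc44a5*, a choline transporter-like protein, was at 43.7, 25.9 and 49.7 CPM in control and at 18.6, 7.57, 17.6, 8.52 and 12.5 CPM in dKO mice (log2 fold change −1.62, SE 0.30, adjusted p = 0.556 by edgeR), with S04 at 16.9 within the dKO range. Of its UMIs, 88.6% lay in the 5% of cells with the most. The part of the number of such cells caught per mouse in these differences was not tested.

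*Chrm3*, the muscarinic acetylcholine receptor M3, was spread over more cells, with a UMI in 59.4% of them. It stood at 215, 211 and 234 CPM in control mice S01 to S03 and at 134, 93.8, 163, 130 and 124 CPM in dKO mice S05 to S09 (log2 fold change −0.77, SE 0.14, adjusted p = 0.556 by edgeR). The lowest control mouse lay above the highest dKO mouse, and S04, at 222 CPM, lay with the other controls. *Nwd2*, a protein with NACHT and WD repeat domains, showed 46.7, 48.8 and 65.1 CPM in control and 31.5, 26.7, 38.1, 27.8 and 31.2 CPM in dKO mice (log2 fold change −0.78, SE 0.15, adjusted p = 0.690 by edgeR). S04 stood at 79.5 CPM, above every dKO mouse.

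*Dach1*, a transcriptional cofactor found in 97.0% of ganglion cells, stood at 649, 714 and 653 CPM in control mice S01 to S03 and at 494, 548, 535, 545 and 566 CPM in dKO mice S05 to S09. The log2 fold change was −0.32 (SE 0.09), and S04 was at 881 CPM. *Cx3cl1*, the chemokine fractalkine by which neurons signal to microglia, was at 102, 103 and 102 CPM in control and 69.3, 74.7, 82.9, 76.0 and 89.0 CPM in dKO mice (log2 fold change −0.38, SE 0.11), with S04 at 76.1 among the dKO mice. Both groups were narrow for these 2 genes and did not overlap, while S04 went with opposite groups.

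*Grik3*, a kainate receptor subunit, was at 139, 122 and 156 CPM in control and 52.2, 121, 67.2, 80.9 and 80.0 CPM in dKO mice (log2 fold change −0.78, SE 0.22). *Fhit*, a nucleoside polyphosphate hydrolase, was at 231, 250 and 188 CPM in control and 142, 150, 188, 121 and 104 CPM in dKO mice (log2 fold change −0.67, SE 0.16). The nearest mice of the 2 groups differed by little for both genes, and S04 stood at 86.3 CPM for each. *Gabra4*, the alpha-4 subunit of GABA-A receptors, was the one higher in dKO, at 28.4, 17.2, 33.1, 29.8 and 31.2 CPM against 15.4, 19.0 and 11.4 CPM in control mice (log2 fold change 0.84, SE 0.24). The dKO mouse S06 lay within the control range, and S04 at 30.5 CPM within the dKO range. For *Grik3*, *Fhit*, *Dach1*, *Cx3cl1* and *Gabra4* the adjusted p was 0.9996 (edgeR's quasi-likelihood test).

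**Figure D4:**
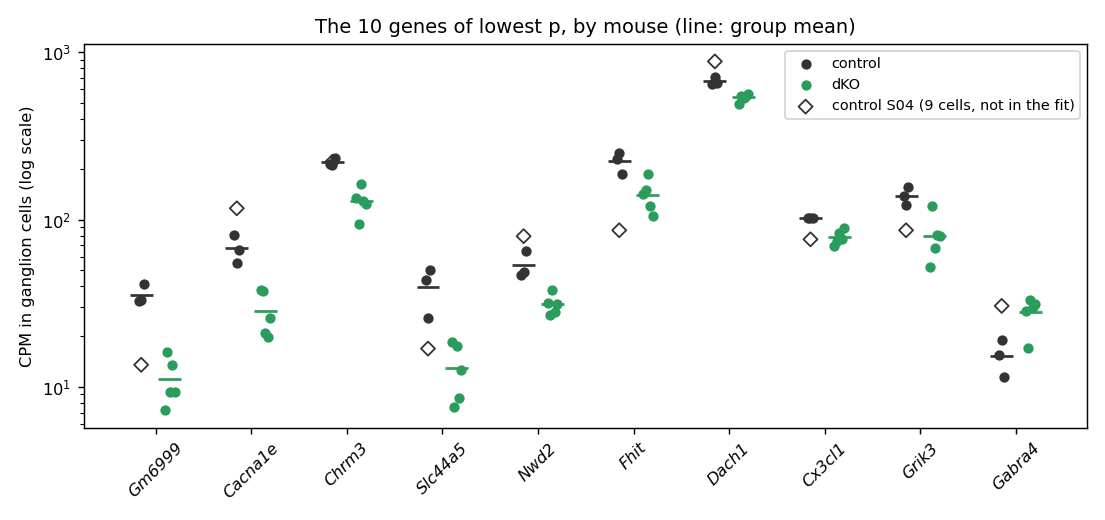
CPM in ganglion cells (log scale) of the 10 genes of lowest p, by mouse, with control in black, dKO in green, a line at each group mean and an open diamond for control mouse S04, which had 9 cells and was not in the fit. The 3 controls lie above the 5 dKO mice for *Gm6999*, *Cacna1e* and *Chrm3*, but S04 lies at 13.5 CPM for *Gm6999*, within the dKO range.

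The change of the 10 genes and of 10 genes that the study discusses was set against that in GABAergic amacrine cells of the same mice. The first 10 had been chosen by their change in ganglion cells, so their differences, on the log2(CPM + 1) scale, are a description. Of the 10 that the study discusses, 0 passed an adjusted p of 0.05 (exact permutation test over mice, two-sided, Benjamini-Hochberg adjustment over all 20), but since 3 against 5 mice allow no p under 0.0179, a gene could pass only if several tied at it, and the count does not show that the 2 cell types changed alike. *Chrm3* differed by −0.79 in ganglion and 0.24 in amacrine cells, a difference of −1.02, and *Gabra4* by 0.82 and −0.29, a difference of 1.11. *Gm6999* was at a low level in amacrine cells, 5.04 CPM in control and 5.25 in dKO mice, where it differed by 0.036. *Cacna1e* stood at 256 and 204 CPM in amacrine cells of control and dKO mice, above its level in ganglion cells, and its difference between the 2 cell types was −0.91.

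The genes that define ganglion cells went in both directions between the groups. The 6 genes of the rule, given as a description since they chose the cells, had log2 fold changes from −0.11 to 0.22 with a median of 0.11, against 0.014 over all genes. *Rbpms* stood at 1142 ± 58.5 CPM (SD, n = 3) among controls and 1057 ± 187 (SD, n = 5) among dKO mice. *Nefm* had the largest difference, at 452 ± 25.7 (SD, n = 3) against 531 ± 99.8 CPM (SD, n = 5; log2 fold change 0.22, SE 0.13). Since the rule chose cells by these genes, their levels were bounded by it in both groups. Of 13 further ganglion cell genes tested, 0 had an unadjusted p below 0.05, against 2.79% of all genes, and their log2 fold changes ran from −0.40 to 0.61 with a median of −0.0051. In lists this short a share of 2.79% comes to 1 gene or fewer, so neither 0 nor 1 call sets a list apart from all genes. *Thy1*, a surface glycoprotein used as a measure of ganglion cell health, was at 265 ± 45.6 CPM (SD, n = 3) among controls and 265 ± 35.6 (SD, n = 5) among dKO mice, and the 2 ranges overlapped.

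Among 20 transcription factors of ganglion cells and their subtypes, 9 had a positive and 11 a negative log2 fold change, with a median of −0.052. *Tbr1* alone had an unadjusted p below 0.05, 1 of 20 against 2.79% of all genes, and 0 passed after adjustment. *Tbr1* stood at 3.29, 9.48 and 6.16 CPM in control mice S01 to S03, at 6.77 in S04, and at 23.3, 13.1, 16.5, 13.1 and 9.32 CPM in dKO mice S05 to S09 (log2 fold change 1.16, SE 0.34, unadjusted p = 0.00623, adjusted p = 0.9996 by edgeR). Of the dKO mice only S09 lay within the control range. Over the 23 alternatives the log2 fold change of *Tbr1* ran from 0.84 to 1.66. *Pou4f2* (Brn3b), which is needed for ganglion cells to form, was at 52.3 ± 4.92 CPM (SD, n = 3) among controls and 46.1 ± 8.33 (SD, n = 5) among dKO mice. *Isl1*, its partner in development, was at 78.7 ± 13.5 (SD, n = 3) and 83.2 ± 7.29 CPM (SD, n = 5).

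Genes for the axon and for firing also went in both directions. The 19 genes tested of the axonal cytoskeleton and transport had a median log2 fold change of 0.0036, from −0.17 to 0.55, with 10 positive and 9 negative. *Nefh* had the largest log2 fold change of them, at 88.4, 86.9 and 78.3 CPM in control and 187, 128, 181, 60.6 and 72.3 CPM in dKO mice (0.55, SE 0.32, unadjusted p = 0.111 by edgeR). Mice S05, S06 and S07 lay above and S08 and S09 below all 3 controls. *Gap43*, the growth-associated protein of axons, was at 118 ± 5.398 CPM (SD, n = 3) against 105 ± 10.1 (SD, n = 5). Of 22 voltage-gated channel subunits, *Cacna1e* alone had an unadjusted p below 0.05 (2.79% over all genes), and their log2 fold changes ran from −1.26 to 0.46 with a median of −0.011. *Scn8a*, the sodium channel of the axon initial segment, was at 496 ± 6.31 CPM (SD, n = 3) against 489 ± 26.9 (SD, n = 5). Of 17 receptor subunits for glutamate, GABA and glycine, 0 had an unadjusted p below 0.05, and their log2 fold changes ran from −0.25 to 0.54 with a median of 0.021.

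Genes of injury, survival and mitochondria gave 1 call at an unadjusted p below 0.05, where all genes gave 2.79%. In the list of injury and stress genes 11 of 20 passed the filter on low counts, so that *Sprr1a*, *Ecel1*, *Gal* and *Cdkn1a* among others were too low to test. *Jun*, a transcription factor induced in ganglion cells by axonal damage, stood at 71.6, 48.2 and 84.5 CPM in control and 20.2, 57.0, 48.3, 40.6 and 47.2 CPM in dKO mice, with S04 at 32.1 (log2 fold change −0.64, SE 0.27, unadjusted p = 0.0391, adjusted p = 0.9996 by edgeR). The groups overlapped through control mouse S02. *Atf3*, a factor induced by injury, was at 12.2, 7.74 and 22 CPM in control and 1.55, 5.80, 49.2, 4.91 and 5.46 CPM in dKO mice, so that S07 was the highest and the other 4 the lowest of all 8. *Map3k12* (DLK), the kinase that starts the response to axonal injury, was at 57.7 ± 11.9 CPM (SD, n = 3) against 62.1 ± 4.82 (SD, n = 5).

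The 12 neurotrophic receptor genes tested had a median log2 fold change of −0.065 and the 12 genes of inherited optic neuropathies 0.099, with 0 unadjusted calls in either. *Ntrk2*, the receptor for BDNF, was at 367 ± 9.45 CPM (SD, n = 3) among controls and 354 ± 36.7 (SD, n = 5) among dKO mice, and *Opa1*, the mitochondrial fusion gene of dominant optic atrophy, at 151 ± 10.6 (SD, n = 3) and 142 ± 3.81 CPM (SD, n = 5). The 7 mitochondrially encoded genes tested had a median of 0.0042. The groups overlapped for both genes.

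**Figure D5:**
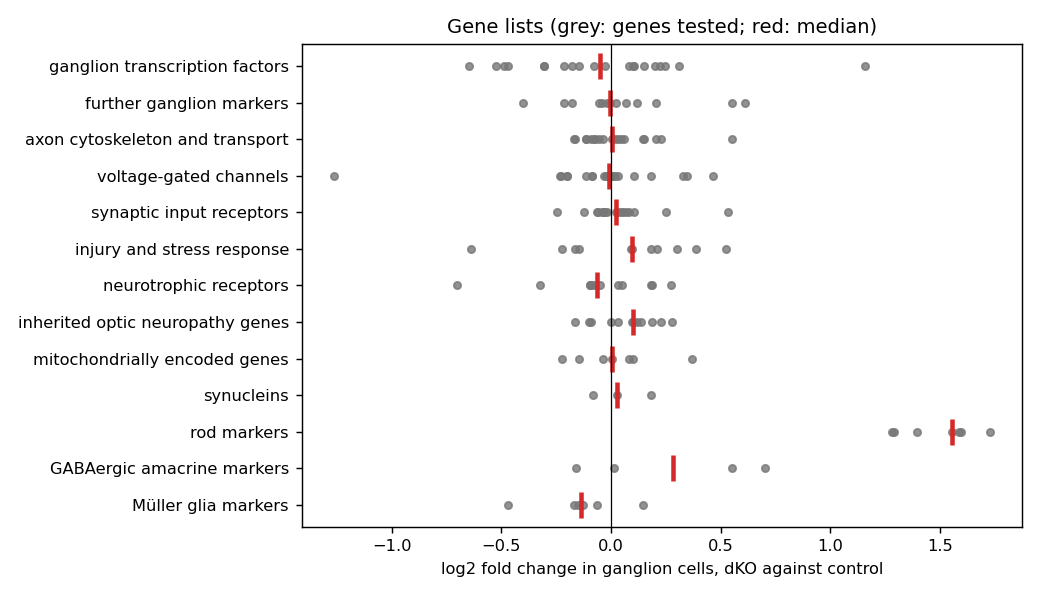
Log2 fold change of dKO against control in ganglion cells for the genes tested of 13 lists (grey points), with the median of each list (red bar). The medians of the ganglion cell lists lie near 0, and the 7 rod genes lie between 1.28 and 1.73.

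Rod genes were at a higher level in S05 and S07 than in the other dKO mice. All 7 had a positive log2 fold change, with a median of 1.56, and 0 had an unadjusted p below 0.05. Their sum was 305 to 488 CPM in the 3 control mice and 261 to 2773 in dKO mice, but 261 to 415 without S05 and S07, and 2186 in S04. Of the bipolar list, *Pcp2* alone had an unadjusted p below 0.05 (log2 fold change −1.34, SE 0.55, adjusted p = 0.9996 by edgeR, 92 UMIs in all). Of the RPE list, 2 of 6 genes could be tested, and *Rpe65* stood at 6.24, 3.002 and 12.3 CPM in control and 1.03, 5.30, 0.435, 1.97 and 1.61 CPM in dKO mice from 102 UMIs, of which 1 cell of S03 held 20 (log2 fold change −1.64, SE 0.65, unadjusted p = 0.0285, adjusted p = 0.9996 by edgeR). Without S03 the log2 fold change of *Rpe65* was −1.05. The other 4 RPE genes, among them *Ttr* and *Best1*, were too low to test. *Chat*, *Slc18a3*, *Slc5a7* and *Sox2* of the starburst list, and *Gfap*, *Pax2* and *S100b* of the astrocyte list, were also below the filter. The 4 amacrine genes tested had a median log2 fold change of 0.28 and the 6 Müller glia genes −0.14, with 0 unadjusted calls. The part of this RNA in the differences of other genes was not tested, and with rod RNA added to the fit 0 genes passed the threshold as well.

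Of the 10 genes that the study discusses for its single cells, 8 could be tested in ganglion cells and 0 passed the threshold. *Gdf11*, a secreted factor of the TGF-beta family, stood at 2.96, 5.53 and 2.64 CPM in control and 13.95, 5.30, 5.87, 0.983 and 4.18 CPM in dKO mice, from 143 UMIs in all (log2 fold change 0.53, SE 0.57). Without S04, S05 and S07 the value was −0.15. *Mlec* (malectin, a lectin of the endoplasmic reticulum) was at 29.4 ± 2.47 CPM (SD, n = 3) against 28.1 ± 8.24 (SD, n = 5). *Trpm3*, the host gene of miR-204, was at 1981 ± 56.1 CPM (SD, n = 3) among controls and 1802 ± 246 (SD, n = 5) in dKO ganglion cells (log2 fold change −0.14, SE 0.13, unadjusted p = 0.304 by edgeR). It was detected in 99.6% of ganglion cells, and its mean over mice was 1533 CPM in amacrine cells and 1874 in cells with rod genes. The host gene transcript does not measure the microRNA.

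*Trpm1*, the host gene of miR-211 and a channel of ON bipolar cells, was at 24.6, 140.5 and 96.4 CPM in control and 25.3, 52.7, 145, 29.8 and 27.3 CPM in dKO ganglion cells (log2 fold change −0.62, SE 0.60). A single cell of S02 held 478 of its 2297 UMIs. The long non-coding RNA *Gm47469* had an unadjusted p below 0.05, at 20.7, 6.64 and 9.24 CPM in control and 4.13, 7.06, 3.70, 5.57 and 4.50 CPM in dKO mice (log2 fold change −1.25, SE 0.38, unadjusted p = 0.00757, adjusted p = 0.9996 by edgeR). S01 set the higher mean of the controls, and without it the value was −0.62. *Rn7sk*, a small nuclear RNA, had a log2 fold change of 1.64 (SE 0.96), which rested on S07, at 242 CPM against 9.17 to 43.4 in the other mice of the fit. Without S07 it was 0.012. *Gm48606* and *Gm45895* were below the filter, and 32 of 44 UMIs of the latter came from 1 cell of S03.

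The composition of subtypes was compared by the share of ganglion cells with a UMI of 12 markers, each cell thinned to 5000 UMIs, which left out 6 cells of control and 6 of dKO mice. None of the 12 differences passed the threshold (exact permutation test over mice, two-sided, lowest adjusted p = 0.964). *Foxp2* was found in 21.3% ± 0.243 (SD, n = 3) of control and 14.1% ± 7.44 (SD, n = 5) of dKO ganglion cells. The dKO mouse S06, at 25.8%, lay above each of the 3 controls. Without thinning the difference for *Foxp2* was −4.22 percentage points (exact permutation test, p = 0.607), and control mouse S04, not in the test, stood at 11.1%. After thinning to 5000 UMIs, *Tbr1* was found in 2.39% ± 1.01 (SD, n = 3) of control and 5.98% ± 3.91 (SD, n = 5) of dKO ganglion cells. At this depth *Tbr1* was also found in 0.250% of the cells with rod genes and 1.12% of amacrine cells, and *Mmp17* in 2.35% and 9.03% of them against 2.67% of ganglion cells, so that *Mmp17* was no more frequent than in cells of other types.

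Thinning took away most of the counts of these cells. With all UMIs, *Tbr1* was found in 9.99% ± 2.58 (SD, n = 3) of control and 19.7% ± 3.20 (SD, n = 5) of dKO ganglion cells, and *Mmp17* in 7.54% ± 0.849 (SD, n = 3) and 10.8% ± 1.25 (SD, n = 5). For both genes every dKO mouse lay above each of the 3 control mice compared, with an exact permutation p of 0.0179, the smallest possible, and an adjusted p of 0.107 over the 12 markers. Control mouse S04, with 9 cells and not in the test, stood at 22.2% for *Tbr1*, above 4 of the 5 dKO mice, and at 0% for *Mmp17*. Thinned to 20000 UMIs, the difference for *Tbr1* was 8.72 percentage points (exact permutation test, p = 0.0714) and that for *Mmp17* 0.423 (exact permutation test, p = 0.536). The difference for *Tbr1* thus kept its direction at each depth and passed no adjusted threshold, whereas that for *Mmp17* did not keep its size.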

How the data were processed

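Single-cell RNA from the retinas of 9 mice was deposited by the authors as 1 matrix of UMI counts (31089 cells, 37725 genes) with a table of the cells. Per the study's methods, the authors mapped reads with split-pipe, and per the submitters' processing notes they used R 4.2.2 and Seurat 4.3.0 on GRCm39. The deposited counts are whole and not normalized, and the columns that give each cell's mouse are labels. Cells were chosen by the rule in the report. Doublets and free RNA were not removed, which can place RNA of other cells in ganglion cells. The members and lists were chosen with earlier results of these data known.

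UMIs were summed over the ganglion cells of each mouse with at least 10 such cells and compared with edgeR 4.0.16 (R 4.3.3; TMM, filterByExpr, glmQLFit), with Benjamini-Hochberg adjustment over all genes and a threshold of 0.05. Standard errors were derived from the F statistic. Exact two-sided permutation tests, over every split of the mice, compared measures with 1 value per mouse. The binomial intervals came from scipy 1.17.1. The script was tested on simulated data. Named genes were those of the rule, the 20 largest ratios among genes with at least 100 CPM, the 10 of lowest p with at least 20 CPM when fewer passed, 10 genes of the paper's text, list members, and *Xist* with 4 Y-linked genes. A marker, *Nefh*, stands in 2 lists. Gene positions are from GENCODE M39 (35478 of 37725 names matched); whether counting used strand is not given in the sources used here, and most of the genes named for the comparison of the groups overlap other genes there, of which *Gabra4*, *Gdf11*, *Gm6999* and *Pcp2* overlap protein-coding ones. Alternatives were DESeq2 1.42.0, limma-voom 3.58.1, other scalings, filters, marker rules and left-out mice. Some genes of the lists are not reported here. MAST, which treats cells as replicates, was not used.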

Additional observations from a re-analysis of the deposited data

Results flagged for a closer look

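Of 41 groups of 4 or 5 mice examined, 5 held a mouse far from the others of its group by Dixon's criterion, and chance alone gives about 1 in 20. Among dKO mice, S05 had a share of cells with *Eomes* of 2.70% after thinning, below the others at 3.08% or more, and S09 a share with *Kcng4* of 1.59%, where the others were at 0. Each of these shares rests on 1 cell, of 37 and of 63. S07 stood apart for *Gm48606* at 5.87 CPM, for *Rn7sk* at 242 CPM and for *Trpm1* at 145 CPM. S05 and S07 are also the dKO mice with the most rod RNA, at 0.185% and 0.277% of ganglion UMIs, and the part of that in these values was not tested.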

How the results depend on the processing

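No paired analysis was possible because the groups share no replicate number and no label ties a control to a dKO mouse. No gene passed the threshold in the main comparison, with TMM or library size, by limma-voom, with *Xist* or (chosen after seeing the data) rod RNA as a covariate, without S04, S05 and S07, or without any 1 mouse (range 0 to 0). The number was 5 with DESeq2, 21 without a filter on low counts, 1 with S06 and S07 summed as 1 mouse (*Chrm3*), and 1 with at least 5 of the 6 markers (*Gm6999*). The cause was not tested. No subtype share or difference from amacrine cells passed under any mouse left out either (range 0 to 0), but without 1 control the smallest p is 0.0476, so that this says nothing about their stability. Without 1 mouse at a time the difference in ganglion share ran from −0.22 to 0.66 percentage points, in median UMIs from 1455 to 6689 and in rod RNA from 0.032 to 0.094 percentage points. Without S04, S05 and S07, the share difference turned to −0.24 and that of rod RNA to −0.0065.

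Directions were compared over the alternatives for the 10 genes of lowest p and for reported genes that the study discusses. Reported list genes with an unadjusted p below 0.05 (edgeR) were compared as well, and no other named genes. Among the genes compared, direction turned for 3, *Gdf11* (0.53), *Adamts10* (−0.070) and *Trpm1* (−0.62). *Gdf11* came to −0.16 with *Xist* and −0.15 without S04, S05 and S07. *Adamts10* came to 0.11, 0.10, 0.060 and 0.056 with *Xist*, without the 3 mice, without the cells of most rod RNA, and with rod RNA as a covariate, and ran from −0.20 to 0.061 without 1 mouse at a time. *Trpm1* came to 0.49 with a sum of at least 10 per 10000 and 0.66 without the cells of most rod RNA. Among subtype shares, in percentage points, *Isl1* came to 4.64 unthinned and 0.97 at 20000 UMIs (chosen after seeing the data, as the next 2), *Kcng4* to −0.50 and *Penk* to −0.73, and *Satb1* to −2.69 without the 3 mice. Without 1 mouse at a time the shares of *Cartpt* (−0.41 to 5.73), *Eomes* (−0.22 to 0.47), *Isl1* (−5.22 to 1.46), *Opn4* (−0.019 to 1.04), *Penk* (−0.27 to 1.05), *Pou4f2* (−1.17 to 0.95) and *Satb1* (−1.06 to 4.01) crossed 0. The 10 genes of lowest p kept their direction in all 23 alternatives, but they had been chosen by this contrast. Since the alternatives use mostly the same counts, this adds no support for them. With a median standard error of 0.19 and 47 to 115 ganglion cells per control mouse compared, small differences were not detectable at this depth.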
